A study of Mus musculus with 8 samples.

Results

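The 10 genes described here make up the gasdermin D pyroptosis pathway and its inflammasomes as listed for mouse: the sensors Nlrp3, Aim2, Naip2, Naip5 and Naip6, the adaptor Pycard, the proteases Casp1 and Casp4, the pore protein Gsdmd and the membrane rupture protein Ninj1. The rule takes them by gene symbol and uses no measured value, but the list was drawn up with earlier results of these data known. All 10 were found among the 13744 genes of the deposited table and passed the filter on low values that left 12752 genes. RNA was sequenced from Ly6C+ classical monocytes of mouse bone marrow, with 2 libraries from wild-type mice (WT), 2 from mice with a conditional Bcl6 knockout (Bcl6 cKO), 2 from Irf2 knockout mice (Irf2 KO) and 2 from Nr4a1 knockout mice (Nr4a1 KO). The labels name no treatment, age, sex, Cre driver or deleted exon. They do not say whether the 2 libraries of a genotype came from separate mice or pools, so p-values measure only the spread between these libraries. The series as a whole asked how such factors shape monocytes that give rise to nonclassical monocytes.

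Inflammasomes are protein platforms that form when a sensor in the cytosol meets a microbial product or a sign of damage. NAIP proteins bind bacterial flagellin or parts of bacterial secretion systems and act through NLRC4, AIM2 binds double-stranded DNA, and NLRP3 responds to many disturbances of the cell, among them potassium loss. ASC, the product of Pycard, joins sensors to caspase-1, which matures the cytokines IL-1β and IL-18 and cuts gasdermin D. Mouse caspase-11, the product of Casp4, binds bacterial lipopolysaccharide in the cytosol and cuts gasdermin D directly. The freed end of gasdermin D forms pores in the plasma membrane, and NINJ1 then ruptures the membrane of the dying cell. In mouse macrophages the transcription factor IRF2 is known as an activator of Gsdmd transcription, and classical monocytes are cells that use these pathways against bacteria in blood and tissue.

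Each library held between 46617756 and 62633123 reads summed over genes, and 1 CPM, the depth-normalised unit of reads, stood for 47.92 to 61.85 reads. Of the targeted genes, Irf2 was lower in Irf2 KO than in WT by 0.56 on the log2 scale (SE 0.14, adjusted p = 0.0222 by limma), a call that ended without any 1 of the 4 libraries compared. Nr4a1 was lower in Nr4a1 KO (-2.31, SE 0.27, adjusted p = 0.000622). Bcl6 was higher in the libraries labelled Bcl6 cKO (1.81, SE 0.16, adjusted p = 0.00233), so that the label is not borne out by the gene's total level and these libraries are named by their label only. Nr4a1 was also lower in Irf2 KO (-2.41, SE 0.27, adjusted p = 0.00163). All 10 classical monocyte markers, Ly6c2 and Ccr2 among them, were detected, and their summed level was 33643 to 38711 CPM in WT, 35090 to 36024 CPM in Bcl6 cKO, 21513 to 23941 CPM in Irf2 KO and 36118 to 39693 CPM in Nr4a1 KO. The sum is carried by Lyz2, with a mean of 24944.5 CPM in WT and 12134.9 CPM in Irf2 KO. Of the 10 markers, 6 fell in Irf2 KO (Csf1r, Itgam, Lyz2, F13a1, Fn1 and Cd14) and 0 rose, while Ly6c2 (4251 CPM in WT and 5625 CPM in Irf2 KO), Ms4a4c (558 and 1055 CPM) and Fcgr1 (67.4 and 165 CPM) had higher means in Irf2 KO and did not pass (adjusted p = 0.278, 0.0516 and 0.0888 by limma). Among all tested genes 12.3% fell and 9.26% rose in Irf2 KO. In these bulk samples fewer cells of a type and less RNA per cell cannot be told apart.

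In Irf2 KO monocytes the parts of the pathway moved in opposite directions: Gsdmd and Ninj1, which open and break the membrane, fell about 3-fold (3.04-fold and 3.06-fold), whereas Casp1, which activates gasdermin D, rose 2.96-fold. Of the 10 genes, 9 passed the threshold of adjusted p under 0.05 against WT, 3 of them higher (Casp1, Pycard, Aim2) and 6 lower (Gsdmd, Ninj1, Nlrp3, Naip2, Naip5, Naip6), and Casp4 did not pass. Over all tested genes 21.6% passed in this comparison, 9.26% higher and 12.3% lower. The libraries of Irf2 KO and WT did not overlap for any of the 10 genes, which holds for 65.8% of all tested genes. The median log2 fold change was -0.46 over the 10 genes and -0.04 over all tested genes. Ninj1 was lower than in WT in all 3 mutant genotypes, while Gsdmd was lower by a much smaller amount in Bcl6 cKO and did not pass in Nr4a1 KO.

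**Figure D1:**
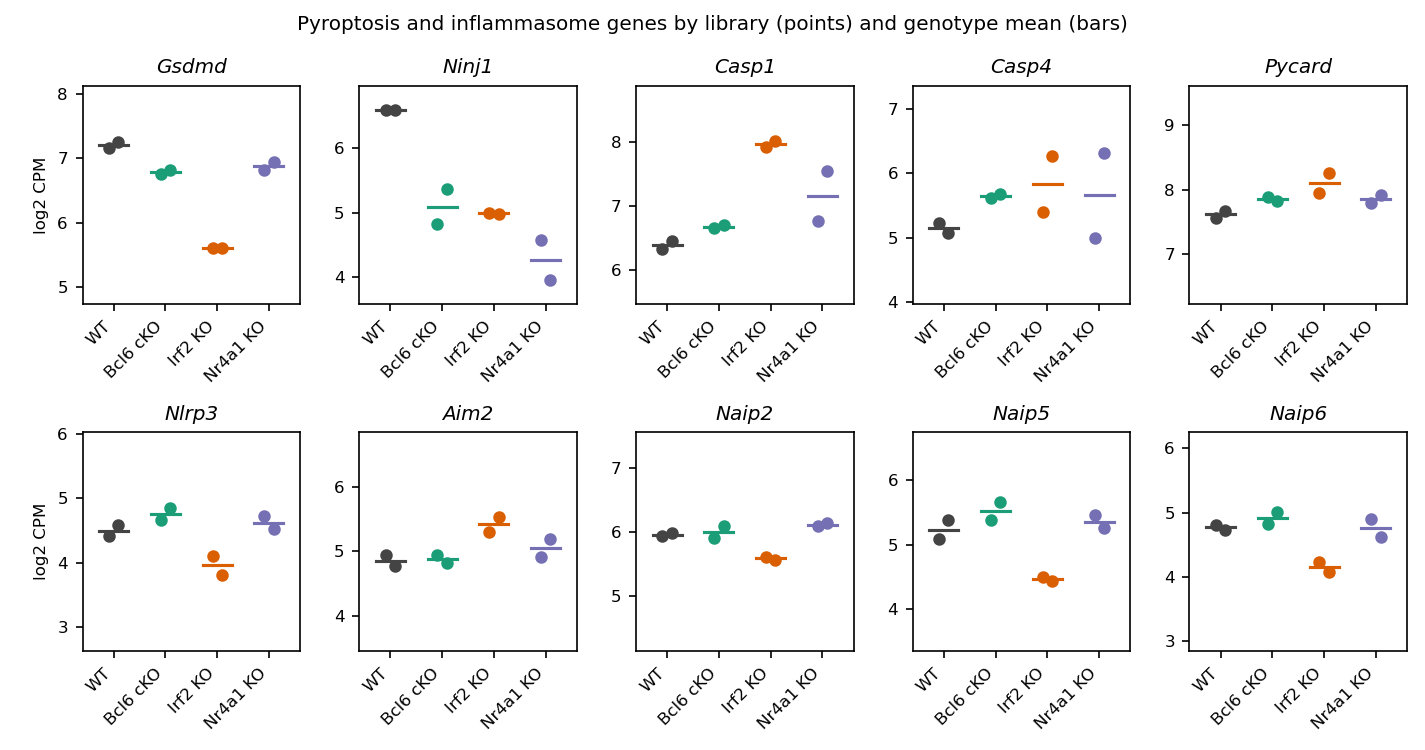
Level of each of the 10 genes in log2 CPM (y axis, every panel spanning the same range) in the 2 libraries (points) of each genotype (x axis), with bars at the genotype means. Gsdmd is lowest and Casp1 highest in both Irf2 KO libraries, and Ninj1 is lower in all 6 mutant libraries than in the 2 WT libraries.

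Gsdmd (ENSMUSG00000022575, chr15:75862327-75867408 on the + strand of GRCm38), the pore-forming substrate at the end of the pathway, was measured at 7.16 and 7.26 log2 CPM in the 2 WT libraries, 6.75 and 6.82 in Bcl6 cKO, 5.61 and 5.60 in Irf2 KO and 6.83 and 6.95 in Nr4a1 KO. Every mutant library lay below both WT libraries, and the Irf2 KO libraries lay far below all others, with 2366 and 2652 reads against 7844 and 8318 in WT. The fall in Irf2 KO was 1.60 on the log2 scale (log2 fold change -1.60, SE 0.10, adjusted p = 0.000346 by limma), and 240 of the 12752 tested genes, Gsdmd included, had a log2 fold change as low. The gene was also lower in Irf2 KO than in Nr4a1 KO (-1.28, adjusted p = 8.48e-05) and than in Bcl6 cKO (-1.18, adjusted p = 0.000965), so the fall in Irf2 KO was larger than in each of the other genotypes by a direct test.

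The differences of Gsdmd in the other genotypes were small. In Bcl6 cKO the log2 fold change was -0.42 (SE 0.10, adjusted p = 0.0428 by limma). This call ended when libraries were centred on their medians (-0.35, adjusted p = 0.0779), after a correction for the GC content and length of genes (-0.24, adjusted p = 0.203) and without either WT library (adjusted p = 0.104 and 0.196). It also ended without either Bcl6 cKO library (adjusted p = 0.226 and 0.156). In Nr4a1 KO it was -0.32 (95% confidence interval -0.54 to -0.10, adjusted p = 0.0581), and after the GC and length correction it was 0.00. Across 12740 genes the log2 fold change had a Spearman correlation with GC content of -0.193 in Irf2 KO, -0.318 in Bcl6 cKO and -0.338 in Nr4a1 KO, a description over genes that are not independent. Gsdmd has 54.4% GC against a median of 49.0% over the genes, and its fall in Irf2 KO was 1.42 after the correction (log2 fold change -1.42, adjusted p = 0.000503).

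Ninj1 (ENSMUSG00000037966, chr13:49187485-49196244, + strand), whose product breaks the plasma membrane after the pores have formed, stood at 6.60 log2 CPM in both WT libraries. Its level was 4.82 and 5.36 in Bcl6 cKO, 4.997 and 4.979 in Irf2 KO and 4.57 and 3.94 in Nr4a1 KO. All 6 mutant libraries were below the WT libraries by more than 1 log2 unit, and the lowest of them, the second Nr4a1 KO library, held 736 reads against 4973 and 5627 in WT.

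The fall of Ninj1 was 5.08-fold in Nr4a1 KO (log2 fold change -2.34, SE 0.23, adjusted p = 0.000227 by limma), 3.06-fold in Irf2 KO (-1.61, SE 0.23, adjusted p = 0.00313) and 2.85-fold in Bcl6 cKO (-1.51, SE 0.23, adjusted p = 0.00954). These comparisons share the same 2 WT libraries. The Bcl6 cKO call ended without the first Bcl6 cKO library (-1.24, adjusted p = 0.109) and without the first WT library (adjusted p = 0.0560). Irf2 KO and Bcl6 cKO did not differ by the test (-0.10, 95% confidence interval -0.62 to 0.41, adjusted p = 0.805). The level in Irf2 KO was above that in Nr4a1 KO by 0.73 (adjusted p = 0.0480). This call ended in 11 of 17 alternatives, the GC and length correction (0.40), voom, the replicate block and the fits without either library of WT or Irf2 KO among them. The value was 1.05 without the first Nr4a1 KO library and 0.42 without the second, where the call also ended. The difference between Bcl6 cKO and Nr4a1 KO was 0.84 (95% confidence interval 0.32 to 1.35, adjusted p = 0.0731). At 59.4% GC Ninj1 lay above the upper quartile of genes (53.6%), and after the GC and length correction its log2 fold changes were -1.85 in Nr4a1 KO, -1.45 in Irf2 KO and -1.25 in Bcl6 cKO, all of them past the threshold (adjusted p = 0.000828, 0.00485 and 0.0183).

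Casp1 (ENSMUSG00000025888, chr9:5298517-5307265, + strand), the protease that cuts gasdermin D and the IL-1 family cytokines, was at 6.33 and 6.46 log2 CPM in WT and 6.65 and 6.70 in Bcl6 cKO. The Irf2 KO libraries stood at 7.92 and 8.01 and the Nr4a1 KO libraries at 6.77 and 7.55. Both Irf2 KO libraries were above every other library, and the 2 Nr4a1 KO libraries were far apart. The rise in Irf2 KO was 1.57 on the log2 scale (SE 0.21, adjusted p = 0.00282 by limma), with 105 of 12752 genes at least as high. Directly compared, Irf2 KO exceeded Bcl6 cKO by 1.29 (adjusted p = 0.00984) and Nr4a1 KO by 0.81 (adjusted p = 0.0265). The first of these calls ended in 3 of 17 alternatives, without either Bcl6 cKO library or the second Irf2 KO library. The other ended in 6 of 17, namely with no trend of the prior variance, with the 2 groups alone and without either library of Irf2 KO or of Bcl6 cKO (adjusted p up to 0.123), and its value was 0.41 without the first and 1.20 without the second Nr4a1 KO library.

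In Nr4a1 KO the log2 fold change of Casp1 was 0.76 (SE 0.21, adjusted p = 0.0429 by limma). Without the second Nr4a1 KO library it was 0.37 (adjusted p = 0.0854), and the call also ended without either WT library (adjusted p = 0.157 and 0.118) and in a fit of the 2 groups alone (adjusted p = 0.134). In Bcl6 cKO the value was 0.28 (95% confidence interval -0.20 to 0.76, adjusted p = 0.484).

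Casp4 (ENSMUSG00000033538, chr9:5308828-5336783, + strand), which lies next to Casp1 and encodes the sensor protease for lipopolysaccharide, did not pass in any comparison. Its level was 5.23 and 5.07 log2 CPM in WT and 5.62 and 5.69 in Bcl6 cKO. Values were 5.40 and 6.27 in Irf2 KO and 4.999 and 6.33 in Nr4a1 KO. The 2 libraries of Irf2 KO and of Nr4a1 KO disagreed by more than the genotypes did, and the pooled SD within genotypes (0.56) was the widest of the 10 genes. The log2 fold change in Irf2 KO was 0.69 (95% confidence interval -0.21 to 1.59, adjusted p = 0.244 by limma), a range that includes both no difference and a rise as large as that of Casp1.

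The second Nr4a1 KO library was higher than the first in Casp1 and Casp4 and also in interferon-stimulated genes. A list of 10 such genes, added after the values were seen, summed to 519 and 1098 CPM in WT, 824 and 999 CPM in Bcl6 cKO, 1222 and 1687 CPM in Irf2 KO and 206 and 1019 CPM in Nr4a1 KO. The second library was above the first in each genotype. In Irf2 KO 3 of the 10 rose (Ifit1, Rsad2, Cmpk2), where 9.26% of all tested genes rose. In Bcl6 cKO 0 of the 10 passed by limma, 0 by voom and 0 at an unadjusted p under 0.05, and in Nr4a1 KO 0 passed by either tool and 1 was lower at an unadjusted p under 0.05. No gene of the list was at 0 reads in any library, and the part of this difference in the levels of Casp1 and Casp4 was not tested.

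**Figure D2:**
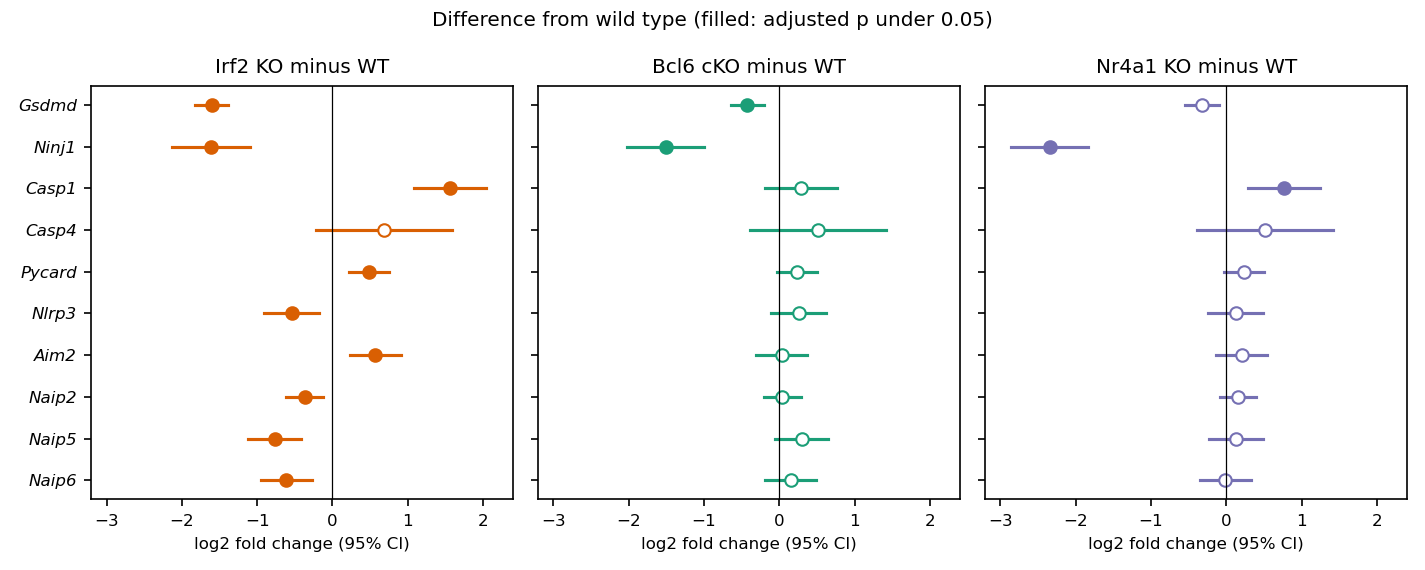
Log2 fold change of each gene against WT (x axis) with its 95% confidence interval, in Irf2 KO, Bcl6 cKO and Nr4a1 KO from left to right; filled points passed adjusted p under 0.05 by limma. In Irf2 KO 9 points are filled and lie on both sides of 0, from -1.61 (Ninj1) to 1.57 (Casp1), whereas 2 are filled in each of the other panels.

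Pycard (ENSMUSG00000030793, chr7:127989708-127993867, - strand), the adaptor between sensors and caspase-1, stood at 7.57 and 7.67 log2 CPM in WT and 7.88 and 7.82 in Bcl6 cKO. In Irf2 KO the level was 7.95 and 8.26, and in Nr4a1 KO 7.79 and 7.91. All mutant libraries were above WT by small amounts. The rise passed in Irf2 KO (0.49, SE 0.12, adjusted p = 0.0217 by limma), though not without the second Irf2 KO library (0.33, adjusted p = 0.127) or without either WT library (adjusted p = 0.0985 and 0.0658). Bcl6 cKO and Nr4a1 KO each had a log2 fold change of 0.23 (adjusted p = 0.299 and 0.225). Of the exon bases of Pycard, 12.8% overlap an annotated gene on the opposite strand, Gm45205, and reads of the pair cannot be told apart without strand. The other 9 genes share no exon base with another gene in GENCODE M21.

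Among the sensors, Nlrp3 and the 3 Naip genes fell in Irf2 KO and Aim2 rose. Nlrp3 (ENSMUSG00000032691, chr11:59541568-59566956, + strand) was at 4.41 and 4.58 log2 CPM in WT, 4.67 and 4.84 in Bcl6 cKO, 4.10 and 3.81 in Irf2 KO and 4.72 and 4.52 in Nr4a1 KO, so that both Irf2 KO libraries were the lowest of the 8. Its fall of 0.54 (log2 fold change -0.54, SE 0.16, adjusted p = 0.0443 by limma) was near the threshold and was kept in 5 of 18 alternatives. It ended with median centring (-0.44, adjusted p = 0.0771), with the GC and length correction (-0.33, adjusted p = 0.192), with the replicate number as a block (adjusted p = 0.0557) and without either library of WT or of Irf2 KO (adjusted p = 0.0633 to 0.223). Against the other mutants Nlrp3 was lower in Irf2 KO by 0.80 (log2 difference -0.80 from Bcl6 cKO, adjusted p = 0.0207) and by 0.67 (-0.67 from Nr4a1 KO, adjusted p = 0.0198), and each of these calls ended in 3 of 17 alternatives.

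Aim2 (ENSMUSG00000037860, chr1:173350879-173466040, + strand), the DNA sensor, was at 4.94 and 4.77 log2 CPM in WT and 5.31 and 5.54 in Irf2 KO, with 4.95 and 4.83 in Bcl6 cKO and 4.92 and 5.20 in Nr4a1 KO. The 2 Irf2 KO libraries were above all others. The rise of 0.57 (SE 0.15, adjusted p = 0.0293 by limma) ended without either library of WT (adjusted p = 0.0584 and 0.144) or of Irf2 KO (adjusted p = 0.0586 and 0.166), and the log2 fold changes in Bcl6 cKO (0.03) and Nr4a1 KO (0.20) did not pass (adjusted p = 0.932 and 0.402).

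Naip5 (ENSMUSG00000071203, chr13:100211739-100246323, - strand), a flagellin sensor, was at 5.08 and 5.38 log2 CPM in WT and 5.39 and 5.67 in Bcl6 cKO. The Irf2 KO libraries stood at 4.50 and 4.43 and the Nr4a1 KO libraries at 5.47 and 5.25. Its fall in Irf2 KO (log2 fold change -0.77, SE 0.16, adjusted p = 0.0116 by limma) was the largest of the sensors and was kept in 16 of 18 alternatives, the exceptions being the fits without the second Irf2 KO library (-0.73, adjusted p = 0.0640) and without the second WT library (-0.62, adjusted p = 0.0728). The gene was also lower in Irf2 KO than in Bcl6 cKO (-1.07, adjusted p = 0.00649) and Nr4a1 KO (-0.90, adjusted p = 0.00478).

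Naip6 (ENSMUSG00000078942, chr13:100281121-100317674, - strand), the second flagellin sensor, was at 4.81 and 4.73 log2 CPM in WT and 4.82 and 5.01 in Bcl6 cKO. Values were 4.23 and 4.08 in Irf2 KO and 4.89 and 4.62 in Nr4a1 KO. Naip2 (ENSMUSG00000078945, chr13:100144063-100202092, - strand), which recognises the rod of bacterial secretion systems, was at 5.93 and 5.99 in WT and 5.91 and 6.09 in Bcl6 cKO. In Irf2 KO the level was 5.62 and 5.56, and in Nr4a1 KO 6.09 and 6.14. For both genes the Irf2 KO libraries were the lowest of the 8. Naip6 fell in Irf2 KO by 0.61 (log2 fold change -0.61, SE 0.15, adjusted p = 0.0229 by limma) and Naip2 by 0.37 (-0.37, SE 0.11, adjusted p = 0.0414). Both calls ended without any 1 of the 4 libraries of WT or Irf2 KO (adjusted p = 0.0622 to 0.123 for Naip6 and 0.100 to 0.169 for Naip2), and that of Naip2 also with median centring (-0.27, adjusted p = 0.102). The Naip genes are closely related neighbours, so that reads matching several of them could be counted for the wrong one. Of all 150-base windows in the longest transcript, 8.25% in Naip5, 1.89% in Naip6 and 0.56% in Naip2 also occurred in another Naip gene, against 0.00% for Casp1 and Casp4 with one another or Casp12.

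In Bcl6 cKO, 2 of the 10 genes passed against WT, both lower (Gsdmd and Ninj1), where 5.01% of all tested genes passed (1.36% higher and 3.65% lower). The libraries did not overlap with WT for 8 of the 10 genes in Bcl6 cKO and for 5 in Nr4a1 KO, beside 55.2% and 56.8% of all tested genes. In Nr4a1 KO 2 passed (Casp1 higher, Ninj1 lower), where 15.1% of all tested genes passed, 3.94% higher and 11.2% lower. The medians over the 10 genes were 0.19 in Bcl6 cKO and 0.14 in Nr4a1 KO, beside -0.01 and 0.01 over all tested genes. Between the mutants, 7 of the 10 genes passed for Irf2 KO against Nr4a1 KO, 2 higher and 5 lower, where 22.3% of all tested genes passed (12.4% higher and 9.94% lower). For Irf2 KO against Bcl6 cKO 6 passed, 1 higher and 5 lower, where 9.55% of all tested genes passed (3.87% higher and 5.68% lower). For Bcl6 cKO against Nr4a1 KO 0 of the 10 passed, where 5.75% of all tested genes did. In that last comparison 2 of the 10, Ninj1 and Casp1, had an unadjusted p under 0.05, and 0 passed by limma voom.

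**Figure D3:**
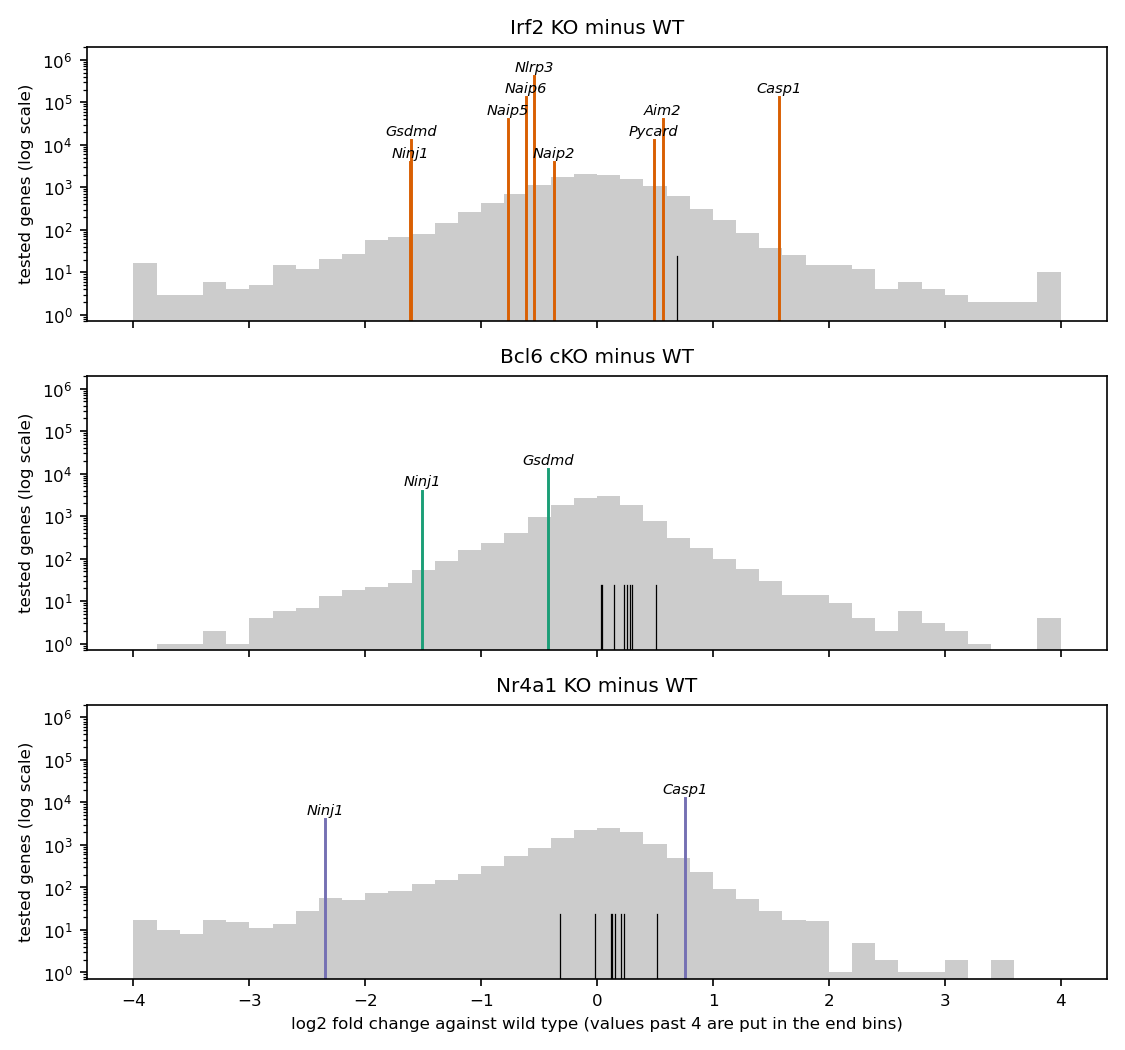
Histogram of log2 fold change against WT over the 12752 tested genes (grey, counts on a log scale) in each mutant genotype, with tall coloured lines at the pyroptosis genes that passed adjusted p under 0.05 and short black lines at those that did not. In Irf2 KO Gsdmd, Ninj1 and Casp1 lie in the tails and the other 6 called genes within 1 log2 unit of 0.

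Per length, the WT levels fell into groups. Dividing CPM by the kilobases of all annotated exons gave 62.3 ± 2.80 CPM per kb (SD, n = 2) for Gsdmd, 61.8 ± 0.0623 for Ninj1, 56.3 ± 3.40 for Casp1 and 51.7 ± 2.53 for Pycard. Well below were Naip2 at 12.9 ± 0.361, Casp4 at 9.57 ± 0.765, Aim2 at 8.28 ± 0.720, Naip5 at 7.26 ± 1.07, Nlrp3 at 5.57 ± 0.461 and Naip6 at 3.99 ± 0.151. The adaptor, the executioner protease and the lytic proteins were at higher transcript levels than every sensor on this scale. Gsdmd and Ninj1 did not differ beyond the spread of their 2 WT libraries on this scale, but did with the longest transcript as the length (82.7 ± 3.71 for Gsdmd and 73.4 ± 0.0741 for Ninj1). With that length Casp4 (18.7) and Naip2 (12.9) changed places and the others kept their order. For Casp1 (1497 bases), Pycard (3800), Naip5 (5204) and Naip6 (6827) both lengths are the same. Their values could therefore not move, and how far they depend on the length was not tested.

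The opposite changes of protease and substrate were read as 1 ratio per library. Casp1 over Gsdmd, in CPM per kb, was 0.893 and 0.913 in WT, 1.48 and 1.47 in Bcl6 cKO, 1.52 and 2.41 in Nr4a1 KO, and 7.87 and 8.42 in Irf2 KO. Both Irf2 KO libraries were several times above every other library. The size of the ratio depends on the length used: with the longest transcript the WT levels were 56.3 CPM per kb for Casp1 and 82.7 for Gsdmd, and the order of libraries stays as it is. Casp1 over Pycard was 1.08 and 1.10 in WT, 1.08 and 1.17 in Bcl6 cKO, 2.49 and 2.13 in Irf2 KO and 1.25 and 1.98 in Nr4a1 KO, so that the second Nr4a1 KO library came close to Irf2 KO. The size of this ratio also rests on the annotated lengths, which are the same by either measure for both genes and so were not varied.

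**Figure D4:**
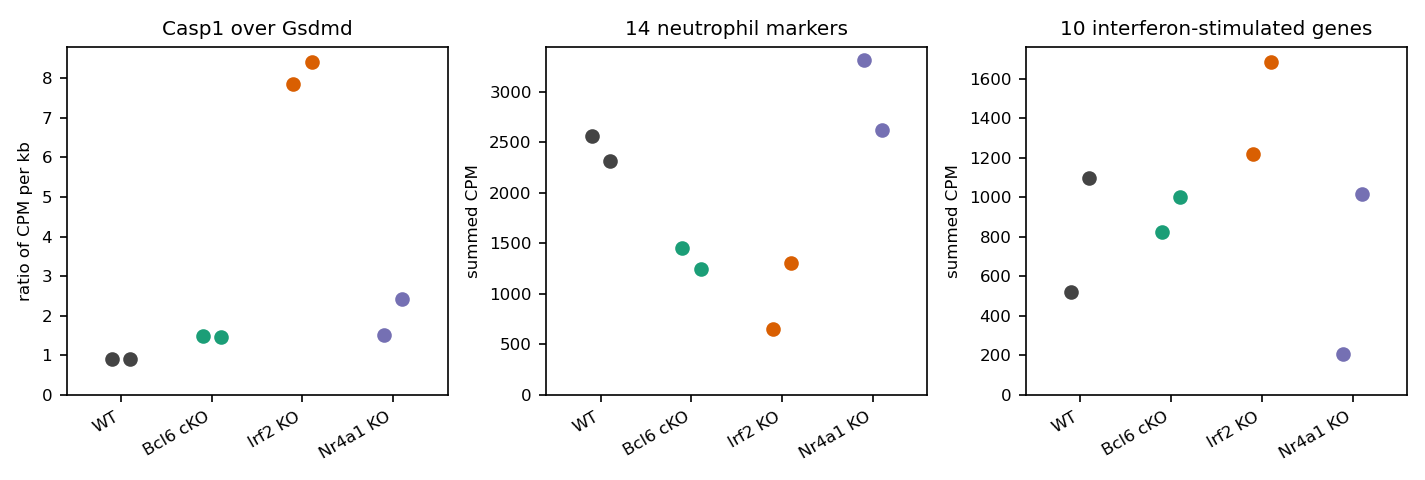
Ratio of Casp1 to Gsdmd in CPM per kb (left), summed CPM of 14 neutrophil markers (middle) and summed CPM of 10 interferon-stimulated genes (right) in each of the 8 libraries, by genotype on the x axis. The ratio is between 7.87 and 8.42 in Irf2 KO and at most 2.41 elsewhere, the neutrophil sum is lower in Irf2 KO and Bcl6 cKO than in WT, and the interferon sum differs widely within WT and within Nr4a1 KO.

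Markers of other cell types also differed between the genotypes, though not all in the same ones. The 14 neutrophil markers summed to 2310 to 2560 CPM in WT, 650 to 1301 CPM in Irf2 KO, 1242 to 1452 CPM in Bcl6 cKO and 2621 to 3310 CPM in Nr4a1 KO. Of the 14, 7 fell in Irf2 KO, 3 in Bcl6 cKO and 0 in Nr4a1 KO by limma (in Nr4a1 KO 1 by voom, and 1 higher and 1 lower at an unadjusted p under 0.05). For this and the lists below, the share of all tested genes that fell was 12.3% in Irf2 KO, 3.65% in Bcl6 cKO and 11.2% in Nr4a1 KO. The share that rose was 9.26%, 1.36% and 3.94%. Ly6g, the defining marker of mature neutrophils, was at -0.80 to 1.99 log2 CPM over the 8 libraries. Of 9 nonclassical monocyte markers in the table, 7 fell in Irf2 KO, 2 in Bcl6 cKO and 4 in Nr4a1 KO, and their sum was 588 to 735 CPM in WT, 282 to 325 CPM in Irf2 KO, 385 to 408 CPM in Bcl6 cKO and 501 to 578 CPM in Nr4a1 KO. Those that fell in Nr4a1 KO were Ace, Treml4, Pou2f2 and Nr4a1, the last being the targeted gene itself. Of 6 early myeloid markers, 5 rose and 1 fell in Irf2 KO, with sums of 1685 to 1943 CPM in WT and 3569 to 4554 CPM in Irf2 KO. Conventional dendritic cell markers summed to 77.1 to 84.7 CPM in WT and 27.9 to 33.0 CPM in Irf2 KO, where 2 of 4 tested fell, and macrophage markers to 151 to 163 CPM and 69.3 to 85.2 CPM, where 1 of 4 fell. Most of the macrophage sum came from Adgre1, with a mean of 141.9 CPM in WT and 63.8 CPM in Irf2 KO. Mertk, a further macrophage marker, did not pass the filter on low values and was not tested. It held 37 and 26 reads in WT but 676 and 798 reads in Bcl6 cKO, with 39 and 6 in Irf2 KO and 44 and 6 in Nr4a1 KO. Plasmacytoid dendritic cell markers summed to 142 to 230 CPM in WT and 395 to 470 CPM in Irf2 KO, where 1 of 4 rose and 2 fell. The higher sum came from Bst2 alone, with a mean of 120.7 CPM in WT and 383.3 CPM in Irf2 KO. Ly6d (5.72 and 0.07 CPM) and Ccr9 (1.94 and 0.58 CPM) fell, and Tcf4 (57.7 and 48.3 CPM) did not pass.

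Lymphoid and erythroid markers differed in level. In WT most of the B cell sum came from Cd79b, with a mean of 51.0 CPM. The mean of Cd79b was 38.2 CPM in Irf2 KO, 30.3 CPM in Bcl6 cKO and 38.2 CPM in Nr4a1 KO. B cell markers summed to 84.3 to 84.4 CPM in WT, 38.1 to 43.8 CPM in Irf2 KO, 42.4 to 53.0 CPM in Bcl6 cKO and 57.9 to 90.4 CPM in Nr4a1 KO, and 3, 1 and 1 of 4 tested fell in Irf2 KO, Bcl6 cKO and Nr4a1 KO. Erythroid markers summed to 17.0 to 17.2 CPM in WT and 1.65 to 2.93 CPM in Irf2 KO, and 2, 1 and 1 of 2 tested fell. Among all tested genes 12.3%, 3.65% and 11.2% fell in these comparisons. The 1 tested marker of T and NK cells, Nkg7, rose in all 3 mutants, from 7.36 to 10.0 CPM in WT to between 13.1 and 20.8 CPM. All other listed markers of these cells, Cd3e, Cd3d, Trac, Klrb1c and Ncr1, were not among the deposited genes. None of the markers in the table was at 0 reads in any library, and their part in the levels of Gsdmd, Ninj1, Casp1 and the sensors was not tested.

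The genes whose pattern over the 8 libraries was nearest to that of Gsdmd were Marcks, Lrrk2, Cnr2, Dgkg and Csf3r. Their root mean square differences from Gsdmd, after each gene was centred on its own mean, were 0.09, 0.101, 0.112, 0.119 and 0.135 log2 units, and 8847 protein-coding genes with mean levels from 4 CPM upward were searched. Marcks, for one, was at 5.40 and 5.48 log2 CPM in WT and 3.86 and 3.81 in Irf2 KO, a fall of 1.61 (log2 fold change -1.61). Since these genes were picked for their likeness to Gsdmd over the same 8 libraries, a fall of similar size follows from the choice. Csf3r, the receptor for granulocyte colony-stimulating factor, is also one of the neutrophil markers above.

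The nearest to Casp1 were Sp140 (0.163), Magohb (0.182) and Psme2b (0.183), the last of which has a close copy with which it may share reads. The nearest to Ninj1 were Sh2b2 (0.203), Dhrs11 (0.213) and Dctn1 (0.259). These distances are larger than those of the genes near Gsdmd.

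Upstream sequence was available from RefSeq (GRCm38.p6, 250 bases before to 50 bases after each start) for 9 of the 10 genes in 11 windows, all except Gsdmd. Motifs were searched on both strands: GAAANNGAAA, an element bound by IRF proteins, AAAGGTCA, bound by NR4A proteins, and TTCNNNGAA, a form of the site bound by BCL6. None of the 3 occurred in any of the 11 windows, and they are found in 3.43%, 1.51% and 8.29% of 32817 mouse promoter windows. A shorter form of the IRF element, AANNGAAA, was searched only after the first 3 had given no match. It occurred in windows of Casp4, Nlrp3, Naip6 and Pycard and not in those of Casp1, Ninj1, Aim2, Naip2 and Naip5, where 23.9% of all promoter windows hold it. A match is only a description of the letters.

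Promoter windows are printed for the gene that rose most in Irf2 KO (Casp1), for its neighbour that did not pass (Casp4), for the gene that fell in all 3 mutants (Ninj1) and for a sensor with matches (Nlrp3), 5′ to 3′ on the gene's strand, with AANNGAAA or its reverse complement in capitals:
Casp1, chr9:5298267-5298566, + strand: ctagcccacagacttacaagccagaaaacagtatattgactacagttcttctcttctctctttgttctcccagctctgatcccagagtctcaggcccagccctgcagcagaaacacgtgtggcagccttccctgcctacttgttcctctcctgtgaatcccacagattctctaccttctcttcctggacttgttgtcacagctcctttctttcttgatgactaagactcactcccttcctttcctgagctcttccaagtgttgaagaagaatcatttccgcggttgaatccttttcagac
Casp4, chr9:5308599-5308898, + strand: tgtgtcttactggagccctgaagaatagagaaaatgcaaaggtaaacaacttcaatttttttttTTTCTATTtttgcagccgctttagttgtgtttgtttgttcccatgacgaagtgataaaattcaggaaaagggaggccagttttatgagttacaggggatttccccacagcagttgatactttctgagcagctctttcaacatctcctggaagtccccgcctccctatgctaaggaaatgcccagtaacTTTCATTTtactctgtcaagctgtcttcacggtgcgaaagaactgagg
Ninj1, chr13:49187279-49187578, + strand: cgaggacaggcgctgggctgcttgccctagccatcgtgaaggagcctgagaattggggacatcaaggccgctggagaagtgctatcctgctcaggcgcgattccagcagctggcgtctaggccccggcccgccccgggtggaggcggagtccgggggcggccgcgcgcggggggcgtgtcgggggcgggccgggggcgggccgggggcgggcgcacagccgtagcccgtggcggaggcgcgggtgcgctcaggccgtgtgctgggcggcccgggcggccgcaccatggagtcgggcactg
Nlrp3, chr11:59542436-59542735, + strand: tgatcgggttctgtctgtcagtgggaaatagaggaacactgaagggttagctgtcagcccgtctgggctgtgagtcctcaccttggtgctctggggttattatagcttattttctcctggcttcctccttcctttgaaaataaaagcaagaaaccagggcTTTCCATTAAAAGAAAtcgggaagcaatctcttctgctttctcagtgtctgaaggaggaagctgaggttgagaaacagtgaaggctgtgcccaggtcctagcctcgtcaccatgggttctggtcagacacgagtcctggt
The Casp1 and Ninj1 windows hold no capitals, and the 2 matches in Nlrp3 lie side by side, 90 and 82 bases before the start. The Ninj1 window is visibly rich in G and C, as is the gene's transcript.

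A wider set of 69 pathway genes was listed by role, of which 53 were in the table and 50 tested. In Irf2 KO 2 of the 50 rose and 12 fell, in Bcl6 cKO 2 rose, and in Nr4a1 KO 3 rose and 6 fell. The medians were -0.14, 0.03 and 0.09. Over all tested genes 9.26% rose and 12.3% fell in Irf2 KO, 1.36% and 3.65% in Bcl6 cKO and 3.94% and 11.2% in Nr4a1 KO. Of the 22 calls described for these role lists, 5 were kept in all alternatives run, namely those of Il1rn, Txnip, Tlr4 and Tlr2 in Irf2 KO and of Lamtor1 in Nr4a1 KO. After the GC and length correction 10 of the 22 did not pass: Pstpip1, Nlrx1, Nlrp1a and Rela in Irf2 KO, Nlrc4 in Bcl6 cKO, and Ripk1, Fadd, Card19, Tlr4 and Rela in Nr4a1 KO. The least stable were Fadd in Nr4a1 KO (kept in 4 of 18), Nlrp1a in Irf2 KO (7), Vps4b in Nr4a1 KO (7), Nlrx1 in Irf2 KO (8), Ripk1 in Nr4a1 KO (9) and Il1b in Irf2 KO (9 of 17).

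Among 9 tested sensors and adaptors, Zbp1, a sensor of Z-form nucleic acids and an interferon-stimulated gene, rose in Irf2 KO. It was at 6.40 and 7.14 log2 CPM in WT, 6.73 and 6.86 in Bcl6 cKO, 9.11 and 9.39 in Irf2 KO and 5.40 and 8.03 in Nr4a1 KO, and its log2 fold change in Irf2 KO was 2.48 (SE 0.66, adjusted p = 0.0314 by limma). This call was kept in 11 of 18 alternatives and ended with no trend of the prior variance, among others. Without 1 library the value was 2.11 to 2.85. As for Casp4, the 2 Nr4a1 KO libraries lay on either side of WT. Pstpip1, which binds pyrin, fell in Irf2 KO (-0.53, adjusted p = 0.00921), as did Nlrx1, a mitochondrial member of the NLR family (-0.68, adjusted p = 0.0344), and the sensor Nlrp1a (-0.61, adjusted p = 0.0460). After the GC and length correction Pstpip1 was at -0.18 (adjusted p = 0.192) and Nlrx1 at -0.31 (adjusted p = 0.262).

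Nlrc4, the partner through which all NAIP proteins act, did not follow the Naip genes. Its level was 4.98 and 5.10 log2 CPM in WT, 5.16 and 4.91 in Irf2 KO, 5.90 and 5.60 in Bcl6 cKO and 5.39 and 5.06 in Nr4a1 KO. It rose in Bcl6 cKO (0.71, SE 0.16, adjusted p = 0.0443 by limma), and its value in Irf2 KO was -0.00 (SE 0.16, adjusted p = 0.993).

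Of 5 tested cytokine genes and inhibitors, 2 fell in Irf2 KO, 1 rose in Bcl6 cKO and 1 rose in Nr4a1 KO. The matching shares of all tested genes were 12.3%, 1.36% and 3.94%. Il1b, whose product caspase-1 matures, was at 1.21 and 0.72 log2 CPM in WT, 1.75 and 1.97 in Bcl6 cKO, -0.62 and 0.05 in Irf2 KO and 2.57 and 3.11 in Nr4a1 KO, with the Irf2 KO libraries lowest and the Nr4a1 KO libraries highest. It fell in Irf2 KO (-1.25, SE 0.35, adjusted p = 0.0349 by limma) and rose in Nr4a1 KO (1.87, SE 0.35, adjusted p = 0.00776). Il1rn, which encodes the receptor antagonist that opposes IL-1, was at 3.55 and 3.75 log2 CPM in WT and 4.75 and 4.71 in Bcl6 cKO. The Irf2 KO libraries stood at 2.04 and 1.69 and the Nr4a1 KO libraries at 3.75 and 4.21. It fell in Irf2 KO (-1.78, SE 0.21, adjusted p = 0.00193) and rose in Bcl6 cKO (1.08, SE 0.21, adjusted p = 0.0249). Il18 did not pass in any of the 3 comparisons (-1.07 in Irf2 KO, adjusted p = 0.0783).

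**Figure D5:**
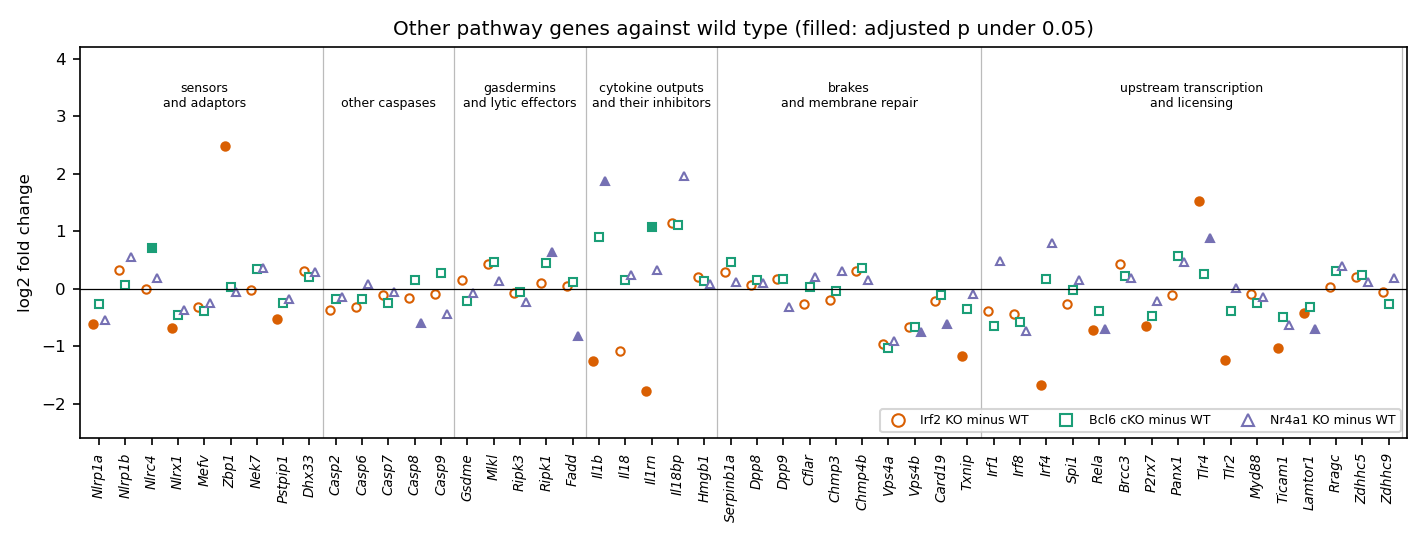
Log2 fold change against WT (y axis) of the 50 tested genes of the wider pathway, grouped by role along the x axis, in Irf2 KO (circles), Bcl6 cKO (squares) and Nr4a1 KO (triangles); filled symbols passed adjusted p under 0.05 by limma. The largest called changes are Zbp1 (2.48), Tlr4 (1.53), Irf4 (-1.66) and Il1rn (-1.78) in Irf2 KO and Il1b (1.87) in Nr4a1 KO.

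Of 5 other caspases, 0 passed in Irf2 KO and 0 in Bcl6 cKO by limma or voom, with 1 lower and 0, respectively, at an unadjusted p under 0.05. Over all tested genes 21.6% passed in Irf2 KO and 5.01% in Bcl6 cKO by limma, and for a list of 5 genes 0 is near these shares. Casp8, which starts death-receptor apoptosis and can also cut gasdermin D, fell in Nr4a1 KO (-0.59, adjusted p = 0.00885 by limma). Of the same death-receptor branch, Fadd, the adaptor of Casp8, fell in Nr4a1 KO (-0.82, adjusted p = 0.0433) and the kinase gene Ripk1 rose (0.64, adjusted p = 0.0386). Ripk1 and Fadd were listed with Gsdme, Mlkl and Ripk3 as other gasdermins and lytic effectors, and Gsdme was the only gasdermin tested besides Gsdmd. Of these 5 genes, 0 passed by limma or voom in Irf2 KO and in Bcl6 cKO, beside the same shares of all tested genes. At an unadjusted p under 0.05 by limma there were 0 and 2 of them, respectively.

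Among genes that prime or license inflammasomes, Tlr4, the surface receptor for lipopolysaccharide, and Tlr2, the receptor for bacterial lipopeptides, moved in opposite directions in Irf2 KO. Tlr4 was at 3.45 and 3.56 log2 CPM in WT, 3.57 and 3.95 in Bcl6 cKO, 4.77 and 5.30 in Irf2 KO and 4.28 and 4.48 in Nr4a1 KO, and rose in Irf2 KO (1.53, SE 0.21, adjusted p = 0.00307 by limma) and in Nr4a1 KO (0.88, SE 0.21, adjusted p = 0.0257). Tlr2 was at 6.08 and 5.87 in WT and 4.40 and 5.05 in Irf2 KO, where it fell (-1.25, SE 0.21, adjusted p = 0.00553). Rela, a subunit of NF-κB, fell in Irf2 KO (-0.71, adjusted p = 0.00358). It also fell in Nr4a1 KO (-0.69, adjusted p = 0.00251), and neither change passed after the GC and length correction (-0.33 and -0.0737, adjusted p = 0.0824 and 0.708). In Irf2 KO P2rx7, the ATP-gated channel upstream of NLRP3, fell by 0.65 (-0.65, adjusted p = 0.0103) and Txnip, which binds thioredoxin and has been linked to NLRP3, by 1.17 (-1.17, adjusted p = 0.00304). In Nr4a1 KO Lamtor1, a Ragulator subunit needed for gasdermin D pores in mouse macrophages, fell (-0.69, adjusted p = 0.00223), as did Card19 (-0.60, adjusted p = 0.0118) and the membrane repair ATPase gene Vps4b (-0.75, adjusted p = 0.0458). The Card19 call ended after the GC and length correction (-0.25, adjusted p = 0.218), with the 2 groups alone and without the second WT library.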

How the data were processed

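Starting from 10 ng of RNA, cDNA was made with a low-input kit, sheared and read as 150-base pairs, per the labels' protocols. STAR, Salmon, featureCounts of Subread, bcl2fastq and limma, with build mm10, are listed per the submitters' processing notes, in no stated order. The authors deposited per-library log2 values, which equal the log2 of reads plus a constant over the scaled total in CPM, and limma results with p-values and fold changes, per the file headers; 45 repeated rows were left out of 13789, and 100% of values gave whole reads within 0.01 when the formula was undone.

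A linear model with a mean per genotype was fitted to the deposited log2 values of the 8 libraries (R 4.3.3, limma 3.58.1, trended prior). P-values were adjusted by Benjamini-Hochberg over the 12752 genes whose mean log2 CPM reached that of 1 CPM. The fit, which was tested on simulated data, has 4 residual and 4.66 prior degrees of freedom. The spread is assumed alike in all groups. With 1 library left out, its partner is taken to vary as the other groups do. matplotlib 3.10.9 drew the figures.

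The 10 genes and all lists were chosen with earlier results of these data known. Beyond the 10, the text names the targeted genes, up to 4 called genes with the smallest adjusted p per role list and comparison, and the nearest patterns; Nlrc4 in Irf2 KO, Il18, Irf4, marker and interferon genes were named after their values were seen. The GC and length correction (splines of GC content and log length), the interferon list and AANNGAAA were added after seeing the data. Positions and lengths came from GENCODE M21 (GRCm38). A gene of the wider pathway is not reported here.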

Additional observations from a re-analysis of the deposited data

How the results depend on the processing

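Of the 13 calls of the 10 genes against WT, 4 were kept in all 18 alternatives run (Gsdmd, Casp1 and Ninj1 in Irf2 KO and Ninj1 in Nr4a1 KO). The 9 genes called in Irf2 KO became 5 with no trend of the prior variance, and 3 to 9 without 1 library: 5 and 3 without the first or second Irf2 KO library, 4 and 3 without the first or second WT library, and 6 without either Bcl6 cKO library. The 2 called in Bcl6 cKO became 1 with no trend, median centring, quantile normalization or the GC and length correction, and 0 to 2 without 1 library (0 without the first Bcl6 cKO or the first WT library). The 2 called in Nr4a1 KO became 1 with no trend, with the 2 groups compared alone and with the GC and length correction, and 1 to 3 without 1 library (3 without the first Nr4a1 KO library and 3 with a filter of 4 CPM, where Gsdmd had adjusted p = 0.0484 by limma). Over all genes, the 2755 calls of Irf2 KO against WT became 1076 to 3190 without 1 library. The 639 of Bcl6 cKO became 259 with no trend, 415 with the GC and length correction and 33 to 917 without 1 library. The 1925 of Nr4a1 KO became 1054 with the 2 groups alone and 1065 to 1775 without 1 library. For Irf2 KO against Nr4a1 KO 2850 became 1770 with the 2 groups alone and 1460 to 2705 without 1 library. For Irf2 KO against Bcl6 cKO 1218 became 537 with no trend, 1947 with the 2 groups alone and 138 to 1647 without 1 library. For Bcl6 cKO against Nr4a1 KO 733 became 484 with the 2 groups alone and 250 to 859 without 1 library. The cause was not tested, except that fewer libraries entered the fits that left 1 out.

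Median centring moved the median of all genes by 0.10 in Irf2 KO, 0.07 in Bcl6 cKO and 0.13 in Nr4a1 KO, and with it the share of calls that were higher from 42.9% to 59.3%, from 27.1% to 40.7% and from 26.1% to 50.7%. The directions of the 13 calls did not turn under any alternative run. Log2 differences that changed sign were near 0 or not called: Gsdmd in Nr4a1 KO was 0.00413 with the GC and length correction, Aim2 in Bcl6 cKO -0.00426 with it, Naip6 in Nr4a1 KO 0.12 with median centring and 0.12 with quantile normalization, and with voom on recovered reads Casp4 and Pycard in Bcl6 cKO against Nr4a1 KO were 0.00115 and 0.000389. Without 1 library, signs also turned for Casp4 in Nr4a1 KO (-0.15 to 1.18), in Irf2 KO against Nr4a1 KO (-0.49 to 0.84), in Irf2 KO against Bcl6 cKO (-0.25 to 0.61) and in Bcl6 cKO against Nr4a1 KO (-0.67 to 0.66), for Naip2 in Bcl6 cKO (-0.0471 to 0.128), Naip5 in Nr4a1 KO (-0.0223 to 0.279), Naip6 in Nr4a1 KO (-0.15 to 0.12), Pycard in Bcl6 cKO against Nr4a1 KO (-0.0629 to 0.0616), Aim2 in Bcl6 cKO (-0.0571 to 0.120) and Ninj1 in Irf2 KO against Bcl6 cKO (-0.37 to 0.17).

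The deviations of libraries with the same replicate number correlated at -0.003 to 0.183 across genes, over 0.1 in 2 of the 6 pairs of genotypes and not in all, so the numbers were not taken as pairing the libraries. With the replicate number as a block 2716, 626 and 1861 genes were called in Irf2 KO, Bcl6 cKO and Nr4a1 KO, and 8, 2 and 2 of the 10 genes. The authors' deposited test gave 3039, 930 and 1472 genes, and 9, 2 and 2 of the 10.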
